A study of Mus musculus with 9 samples.

Results

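The genes described here are the olfactory receptor (OR) genes named Olfr467 to Olfr541 and Olfr694 to Olfr716. Olfr2, Olfr6, Olfr17, Olfr53, Olfr60 and Olfr61 are included as well. As a set these genes stand for the class II ORs of mouse chromosome 7, but the class of each was not checked. They were chosen by gene name alone, with no measured value, and they number 85 of the 1248 Olfr genes and 23607 genes in the tables. RefSeq (GRCm38.p6) places 84 of them on chromosome 7 and 1, the pseudogene Olfr475-ps1, on chromosome 2. It lists Olfr503 also as MOR34-12 and Olfr504 as MOR40-15. Stretches of 50 bases that recur in the genome are shared by Olfr503 with Olfr658 and by Olfr504 with Olfr657, which are not members. Olfr503 and Olfr504 may therefore not be class II. The measurements are RNAseq counts of the mRNAs that were immunoprecipitated with an antibody against phosphorylated ribosomal protein S6 (pS6-IP) from the olfactory epithelium (OE). The 9 mice were C57BL/6 with no further allele given, kept for 1 hr with distilled water (3 controls), 1% heptanal (3 mice) or 100% heptanal (3 mice). Replicates 1, 2 and 3 were mice of postnatal day (P) 22, 21 and 18, and the mice of 1 replicate were littermates, 1 per group. No unprecipitated RNA of the same mice was analysed here, so a level is the product of how much of an mRNA the OE held and how much of it was on phosphorylated ribosomes.

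ORs are G protein-coupled receptors, and each mature olfactory sensory neuron (OSN) is known to express 1 OR gene from 1 allele. Odor binding raises cAMP through the G protein Gnal and the cyclase Adcy3, and the neuron's activity leads to phosphorylation of S6. More of an OR's mRNA in the immunoprecipitate after exposure is therefore used as a sign that OSNs with that receptor were activated, and the comparison here asks which members were recovered more after heptanal. Class II ORs are the receptors found in land vertebrates, while the class I ORs, which are also found in fish, sit in a separate cluster of chromosome 7. Among the members, Olfr2 is the mouse I7 receptor, known for aldehyde ligands including heptanal, and Olfr17 is the P2 receptor used to trace the axons of OSNs. Olfr524 and Olfr538 were among the receptors that the study also expressed in cultured cells. There the paper reports a response of Olfr524 to heptanal and of Olfr538 to (R)-carvone. From its own edgeR test of the pS6-IP counts, the paper reports OR mRNAs enriched at both heptanal concentrations.

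The members fall into 4 groups along the chromosome (GRCm38, GENCODE M21). Olfr520 and Olfr521 lie at chr7:99730273-99769321. The 23 genes Olfr694 to Olfr716 with Olfr2, Olfr6 and Olfr17 lie at chr7:106684980-107150581, a stretch of 0.466 Mb. The 42 chromosome 7 genes of Olfr467 to Olfr519 follow at chr7:107812263-108894420, over 1.08 Mb. The 17 genes Olfr522 to Olfr541 with Olfr53, Olfr60 and Olfr61 lie at chr7:140159999-140705606, over 0.546 Mb. Within these spans 3 further Olfr genes are left out by their names, Olfr45 and Olfr46 among the 17 genes and Olfr1532-ps1 among the 23.

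The total estimated count per mouse was 5438501 to 9707581, and at the smallest total 3 counts correspond to 0.552 counts per 1000000 counts of a library (CPM). The 5 mature OSN markers (Gnal, Cnga2, Ano2, Adcy3 and Omp) were present in every mouse, with summed levels of 4237 to 8713 CPM in controls, 6154 to 8480 CPM after 1% and 10560 to 14890 CPM after 100% heptanal. In such bulk samples fewer cells of a type and less RNA per cell cannot be told apart. The control and 1% heptanal mice of litter 1 stood apart from the rest by their OR counts, with 12793 and 10222 counts on all Olfr genes against 23360 to 64456 in the other 7 mice. Reads from PCR products carried no molecular identifiers, and limits of detection here include counting error alone.

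As a set, members were detected more widely than other ORs in every mouse, but not in each cluster. With 1 count as the limit, 27, 57 and 57 of the 85 members were detected in the control mice of litters 1, 2 and 3, 33, 47 and 60 in the 1% heptanal mice and 50, 60 and 61 in the 100% heptanal mice. These are 31.8% to 71.8% of the members, against 20.8% to 58.0% of the 1163 other Olfr genes, and the share of members was the higher one in 9 of 9 mice. Across the 9 mice 71 members had a count, 21 had one in all 9 mice (24.7%, against 12% of other Olfr genes) and 14 had none (16.5%, against 22.1%). The 14 were Olfr470, Olfr474, Olfr475-ps1, Olfr484, Olfr492, Olfr493, Olfr498, Olfr503, Olfr504, Olfr507, Olfr510, Olfr513, Olfr519 and Olfr710, and 13 of them belong to Olfr467 to Olfr519. Of the 21 members found in all 9 mice, 14 were among the 17 genes of Olfr522 to Olfr541. Only 3 were among the 43 genes of Olfr467 to Olfr519, a smaller share than the 12% of other Olfr genes. A count of 0 in a mouse allows up to 3 counts, which is 0.309 to 0.552 CPM in these libraries. Counts of uniquely mapped reads also gave 21 members in all 9 mice and 14 in none.

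**Figure D1:**
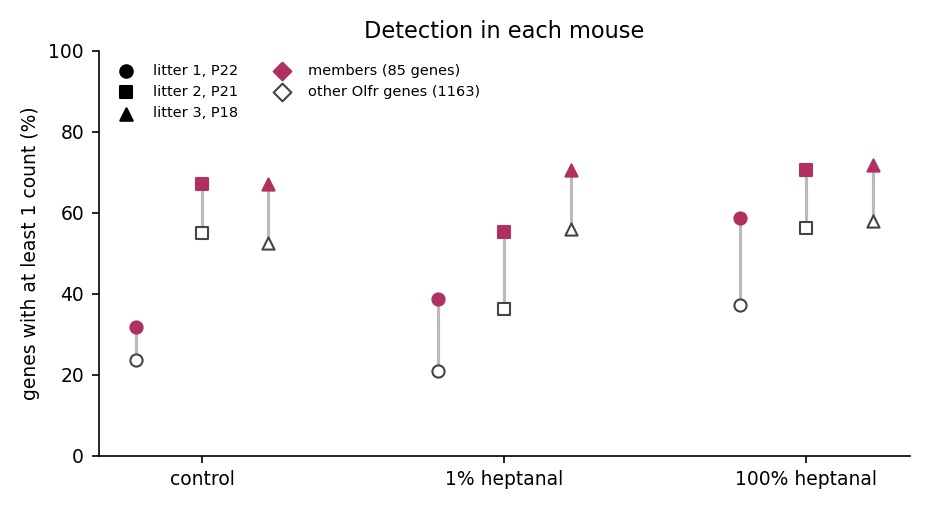
Share of genes with at least 1 count in each mouse (y axis, percent) for the 85 members (filled) and the 1163 other Olfr genes (open), by exposure group (x axis), with 1 symbol shape per litter and grey lines joining the values of 1 mouse. The filled symbol is above the open one in all 9 mice, and the lowest filled values are the control and 1% heptanal mice of litter 1, at 31.8% and 38.8%.

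Detection varied between litters. Of the 37 members found in all 6 mice of litters 2 and 3, 16 (43.2%) were missed in at least 1 mouse of litter 1, and Olfr517 and Olfr703 were missed in all 3. Among other Olfr genes 156 of 295 (52.9%) were missed likewise. The mean number detected in the control, 1% and 100% groups was 47 ± 17.3, 46.67 ± 13.5 and 57 ± 6.08 (SD, n = 3 each), and without litter 1 it was 57, 53.5 and 60.5. The 3 groups overlapped with litter 1 included.

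Most of the signal came from the Olfr522 to Olfr541 cluster. Its 17 genes held 32521 of the 55702 member counts (58.4%). The 43 genes of Olfr467 to Olfr519 held 19.3%, most of it from Olfr482, whose reads are uncertain as described below, the 23 of Olfr694 to Olfr716 held 21.8%, and Olfr520 and Olfr521 held 0.548%. Levels were also divided by the kb of exon in GENCODE M21. The cDNA was primed with poly-T and counted by the authors on OR gene models of an earlier study. Counts need not scale with this length, and levels per kb compare genes only roughly. Per kb of exon the median level over 9 mice was 3.52 CPM per kb in the 17 genes, 0.273 in the 23 and 0.0893 in the 43. Over 1151 other Olfr genes with a gene model it was 0.0986. All 17 genes were detected in at least 1 mouse, and 14 of them were detected in all 9 mice, against 4 of the 23 and 3 of the 43.

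**Figure D2:**
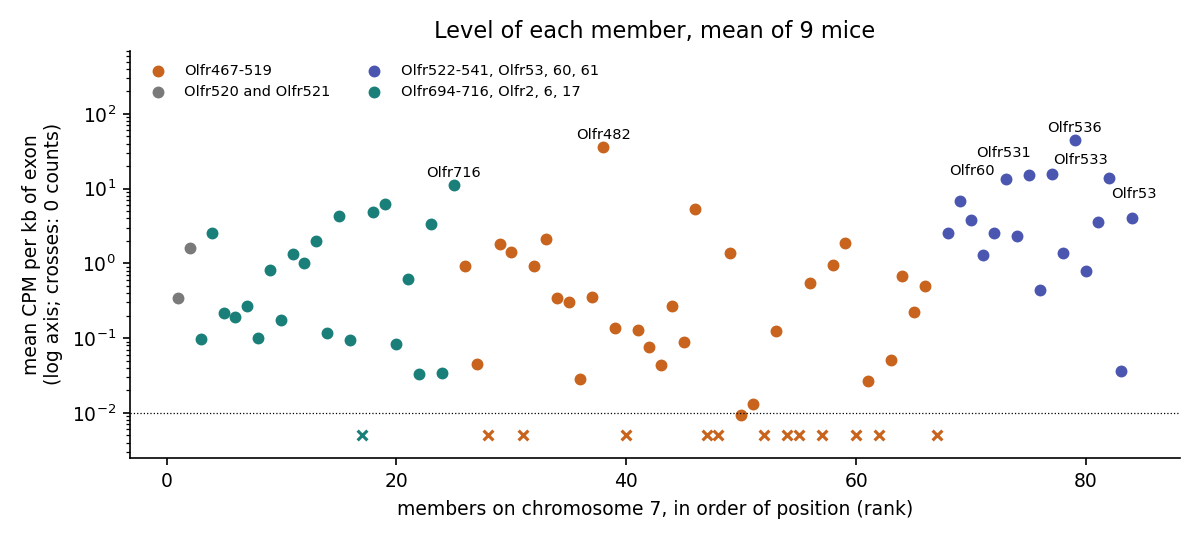
Mean level of each member on chromosome 7 over 9 mice in CPM per kb of exon (y axis, log scale), with members in order of position (x axis, rank) and colored by group. Crosses at the bottom are the 13 members on this chromosome with no count in any mouse, and the 17 genes at the right reach 44.5 CPM per kb.

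Few members carried most of the counts. Olfr536 alone had 13583 counts over the 9 mice (24.4% of all member counts), and the 10 members with the most counts held 75.4%. Per kb of exon the order from the top was Olfr536 at 44.5, Olfr482 at 35.9, Olfr533 at 15.7, Olfr531 at 15, Olfr53 at 14.1, Olfr60 at 13.3 and Olfr716 at 11.1 CPM per kb. Between mice of 1 group the levels of several of these varied by more than the gaps between neighbors in that order, as shown next.

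Olfr536 had 29.1, 295.5 and 169.2 CPM in the control mice of litters 1, 2 and 3, 5.90, 284.2 and 323 CPM at 1% heptanal and 161.3, 207.1 and 240.6 CPM at 100% heptanal. Its 2 lowest mice were the litter 1 mice of the control and 1% groups, and all groups overlapped (log2 fold change at 100% against control 0.30 ± 1.11 SE, edgeR adjusted p = 0.9999). Without litter 1 the log2 fold change was -0.06. Olfr60 was likewise lowest in those 2 mice, but highest at 100% heptanal in each litter, with 5.89, 70.0 and 28.3 CPM in controls, 0, 18.6 and 54.3 CPM at 1% heptanal and 20.7, 109 and 91.8 CPM at 100% heptanal. Olfr711 had 0, 37.8 and 18.3 CPM, then 1.77, 3.65 and 62.6 CPM, then 0.914, 84.1 and 55.9 CPM in the same order, so that all 3 mice of litter 1 were at or below 1.77 CPM. Olfr531 and Olfr533, by contrast, were not low in litter 1. Olfr533 had 65.5, 36.9 and 22.6 CPM in controls, 29.8, 21.4 and 37.1 CPM at 1% heptanal and 62.5, 62.8 and 69.5 CPM at 100% heptanal, and its groups overlapped at 100% heptanal against control only through the litter 1 control.

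At 100% heptanal most tested members had a higher fitted level than in controls, as had most other ORs. Of the 85 members 43 passed the filter on low counts (50.6%, against 34.8% of other Olfr genes), and the other 42 did not, the 14 with no count and 28 with 2 to 111 counts over 9 mice. With no filter 71 members were tested, 0 were called in any comparison, and the median log2 fold change at 100% heptanal was 1.06 for members and 0.67 for other Olfr genes. The log2 fold change was above 0 for 39 of the 43 (90.7%), against 72.1% of the 405 other Olfr genes tested and 46.8% of all 14930 genes. The median was 1.06 for members, 0.93 for other Olfr genes and -0.03 for all genes. It moved to 0.66 for members without the control mouse of litter 1 and to 1.70 without that of litter 2. Of the 43, 6 (Olfr473, Olfr478, Olfr488, Olfr494, Olfr538 and Olfr703) reached the filter of 1.37 CPM in 3 mice only with the help of 100% heptanal mice. Passing in this way favors genes that are higher at 100% heptanal. For the other 37 members the median was 0.89 with 89.2% above 0, and for the 283 other Olfr genes that likewise did not need those mice it was 0.75 with 68.6% above 0.

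In the edgeR test of all genes no member passed the threshold without litters in the fit, and 1 member passed with them. Without litters, at an adjusted p below 0.05, the quasi-likelihood test called 0 of 43 members higher at 100% heptanal. It called 0 of 405 other Olfr genes and 2 of 14930 genes (0.0134%) higher, and none lower. At an unadjusted p below 0.05, 6 members were higher (14%, against 13.3% of other Olfr genes and 3.01% of all genes) and 0 lower. These 6 were Olfr53, Olfr716, Olfr531, Olfr538, Olfr521 and Olfr541, and among the 37 members that passed the filter without the 100% heptanal mice, which leaves out Olfr538, they were 5 (13.5%, against 14.8% of the 283 other Olfr genes). With the litters as a block 1 member was called, Olfr53, beside 7 of 405 other Olfr genes (1.73%) and 48 of all genes (0.322%), and 15 members had an unadjusted p below 0.05 (34.9%, against 28.9% of other Olfr genes and 6.64% of all genes), 13 of them among the 37 (35.1%, against 31.4% of the 283). DESeq2 without the block also called 1 member, Olfr53 (adjusted p = 0.01495), beside 4.2% of other Olfr genes and 0.442% of all genes. With the block DESeq2 called 4 (9.3%), Olfr53, Olfr716, Olfr473 and Olfr6, beside 11.6% and 1.54%. Of these, Olfr473 reached the filter only with the help of 100% heptanal mice.

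Olfr53 (chr7:140646452-140653085, plus strand) had 8.67, 8.46 and 4.17 CPM in the control mice of litters 1, 2 and 3, 17.6, 17.2 and 8.96 CPM at 1% heptanal and 54.9, 41.4 and 13.9 CPM at 100% heptanal. In each litter the level was lowest in the control and highest at 100% heptanal, and neither exposed group overlapped the controls. The log2 fold change at 100% heptanal was 2.37 ± 0.55 (SE), with an edgeR adjusted p of 0.6252 without the block. With the litter block it was 2.26 ± 0.26 (SE) and the adjusted p was 0.01282. At 1% heptanal it was 1.03 ± 0.53 (SE), with an adjusted p of 1.0 without and 0.9996 with the block. The block call at 100% heptanal was kept when each 1% heptanal mouse was left out in turn and without the 100% heptanal mouse of litter 3. It was lost without any one of the control mice, without the 100% heptanal mouse of litter 1 or 2, and without any whole litter, while its log2 fold change with the block was at least 2.02 in each of these fits.

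Olfr716 (chr7:107138327-107150581, plus strand) had 14.3, 38.1 and 13.1 CPM in controls, 6.49, 23.3 and 18.9 CPM at 1% heptanal and 161.4, 99.6 and 52.8 CPM at 100% heptanal. The 100% heptanal mice were all above the other 6, and litter 1 held both the highest and the lowest of the 9 values. The log2 fold change at 100% heptanal was 2.26 ± 0.62 (SE) without the block and 2.39 ± 0.54 (SE) with it, with edgeR adjusted p of 0.7747 and 0.1456. When p-values were adjusted over the 448 tested Olfr genes alone, with the block, Olfr716 (adjusted p = 0.03341) and Olfr53 (adjusted p = 0.003077) passed, beside 38 of 405 other Olfr genes (9.38%). In the other direction 0 members and 1 other Olfr gene (0.247%) passed.

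Olfr521 and Olfr704, also among the members of lowest p, were low in controls. Olfr521 had 0, 2.82 and 1.01 CPM in controls, 1.77, 1.39 and 4.72 CPM at 1% heptanal and 7.66, 5.61 and 8.20 CPM at 100% heptanal. Olfr704 had 3.72, 2.82 and 0 CPM, then 0.295, 1.22 and 3.35 CPM, then 12.2, 17.5 and 8.88 CPM. For both the lowest 100% heptanal mouse was above every mouse of the other groups, and the log2 fold changes against control were 2.47 ± 1.03 (SE) and 2.57 ± 1.17 (SE), neither past the threshold in edgeR with TMM over all genes, with or without the block (adjusted p 0.3775 and 0.4382 with it). Olfr538 had 2, 4 and 8 counts in controls, 1, 9 and 4 after 1% and 46, 14 and 20 after 100% heptanal, and 58.7% of these came from reads with several possible places, as described below.

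Olfr531, Olfr6 and Olfr522 were higher than the control littermate in 3 of 3 litters by smaller or less even steps. Olfr531 had 56.2, 51.7 and 35.5 CPM in controls, 61.6, 48.6 and 42.5 CPM at 1% heptanal and 92.6, 59.3 and 75.6 CPM at 100% heptanal, with a log2 fold change of 0.67 ± 0.26 (SE) and an edgeR adjusted p of 0.2409 with the block. Olfr6 had 8.67, 27.8 and 15 CPM, then 7.23, 35.8 and 64.8 CPM, then 28.9, 78.0 and 35.0 CPM, so that the 100% heptanal mice were above every control but not above every 1% heptanal mouse. Olfr522 had 4.03, 12.1 and 8.97 CPM in controls and 6.40, 16.1 and 33.6 CPM at 100% heptanal, with overlapping ranges. None of the 3 passed the threshold in edgeR with all mice, with or without the block, while DESeq2 with the block called Olfr6 (adjusted p = 0.03213), as did edgeR with the block without the 1% heptanal mouse of litter 3 (adjusted p = 0.04824).

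**Figure D3:**
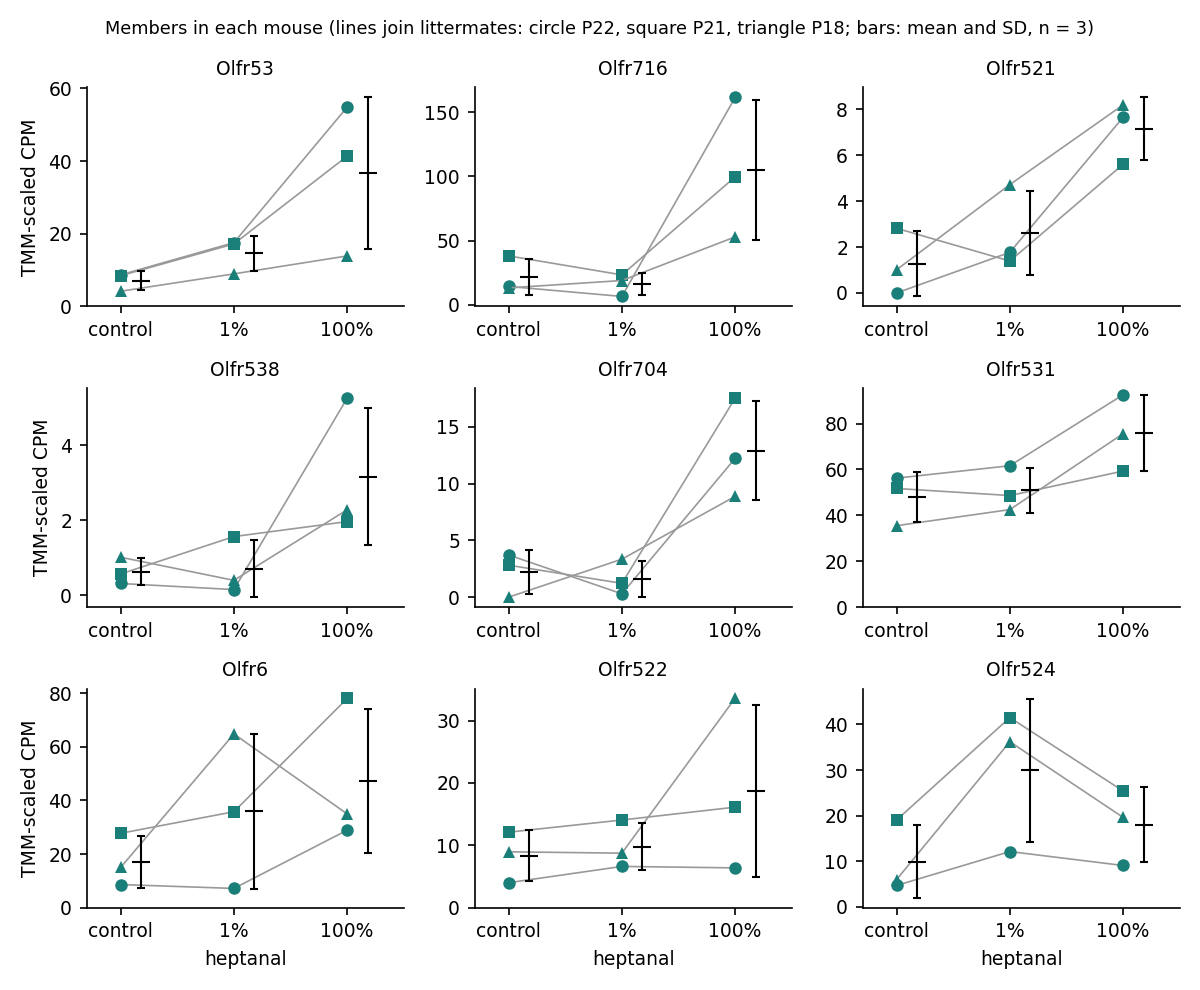
TMM-scaled CPM (y axes, linear) of 9 members in each mouse by exposure group (x axes), with lines joining littermates, symbol shapes for litters and bars at the right of each group for the mean ± SD (n = 3). Olfr53, Olfr716, Olfr521, Olfr538, Olfr704, Olfr531 and Olfr6 have all 3 values at 100% heptanal above all 3 controls, while Olfr524 is highest at 1% heptanal in each litter.

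In counts of members whose groups did not overlap, the members were near the other ORs. At 100% heptanal 8 of 43 members (18.6%) lay wholly above the controls, against 20.2% of other Olfr genes and 5.97% of all genes, and 0 lay wholly below, against 1.73% and 3.55%. The 8 were Olfr6, Olfr17, Olfr521, Olfr53, Olfr531, Olfr538, Olfr704 and Olfr716, of which 7 belong to the 37 members that passed the filter without the 100% heptanal mice (18.9%, against 22.3% of the 283 other Olfr genes). Comparing littermates, 21 members (48.8%) were higher in 3 of 3 litters and 0 were lower in 3 of 3, against 42.7% and 8.64% of other Olfr genes. Over all genes these shares were 18.4% and 18.3%. Among the 37 members that passed the filter without the 100% heptanal mice, 19 (51.4%) were higher in 3 of 3 litters. Among the 283 other Olfr genes it was 43.1%. By group, the median log2 fold change was 1.21 over the 12 tested members of Olfr694 to Olfr716, 1.05 over 14 of Olfr467 to Olfr519 and 0.86 over 16 of Olfr522 to Olfr541. Each median includes members that reached the filter only with the help of 100% heptanal mice. They were Olfr703 in the first group, Olfr473, Olfr478, Olfr488 and Olfr494 in the second and Olfr538 in the third. The medians therefore do not rank the groups. The 2 members with the lowest values were Olfr699 at -2.24 and Olfr481 at -1.55, and neither passed the threshold in edgeR with TMM over all genes, with or without the block. Relative to OSN markers or to other ORs, with the block, Olfr481 was called lower (log2 fold change -2.26 and -2.18, edgeR adjusted p = 0.04343 and 0.03685). The same fits called 8.4% and 11.9% of other Olfr genes and 65.0% and 57.8% of all genes lower. Olfr523 was called lower in both as well, and Olfr482 in the fit relative to OSN markers.

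**Figure D4:**
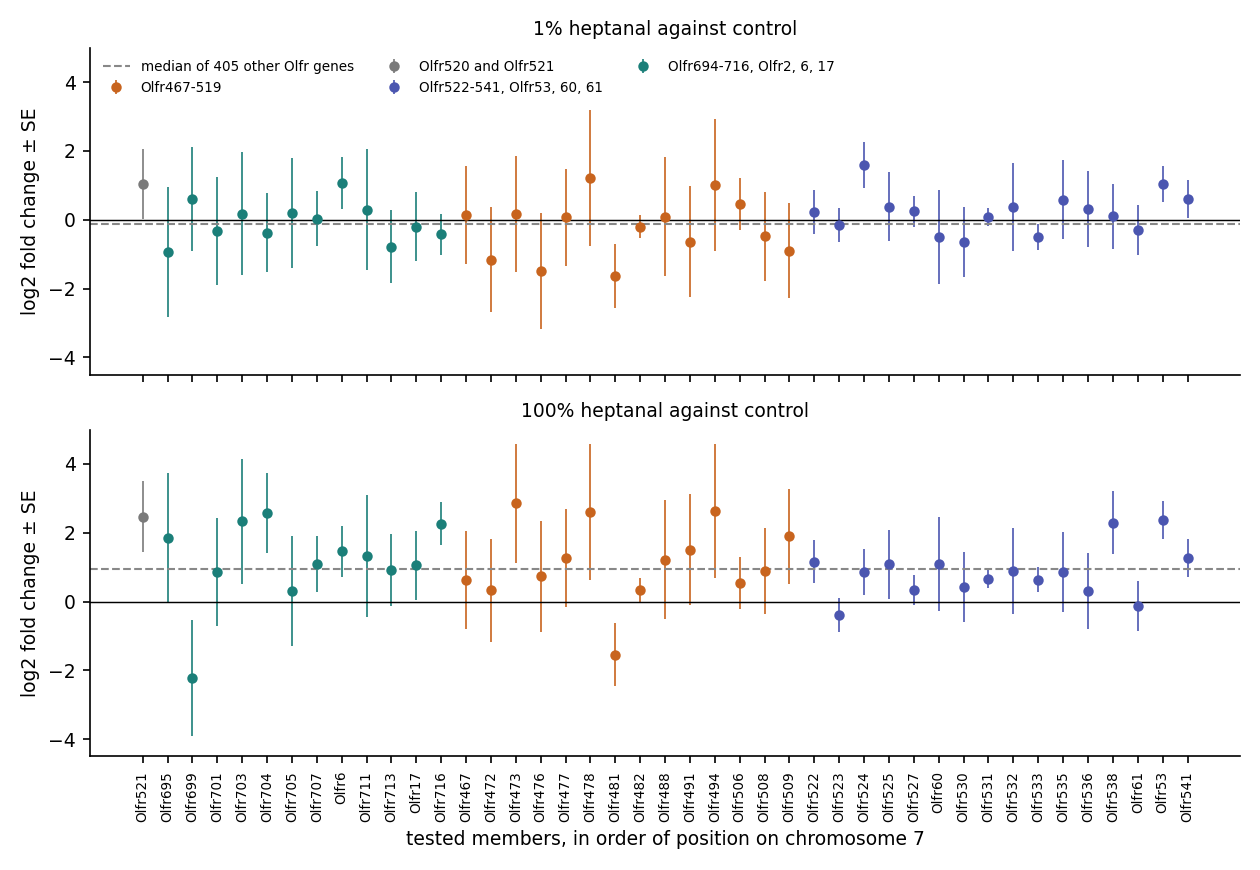
Log2 fold change ± SE (y axes) of the 43 tested members, in order of position on chromosome 7 (x axis) and colored by group, at 1% heptanal (upper panel) and 100% heptanal (lower panel) against control, from the fit without the block. The dashed line is the median of the 405 other Olfr genes tested, -0.12 in the upper and 0.93 in the lower panel, and 39 of 43 points in the lower panel are above 0.

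At 1% heptanal the members did not move together. The log2 fold change was above 0 for 25 of 43 members (58.1%, against 43.2% of other Olfr genes), and the median was 0.09 for members and -0.12 for other Olfr genes. It depended on the litters included, at 0.54 for members without litter 2 and -0.87 without litter 3. No member and none of the 14930 genes (0.0%) passed the threshold with edgeR, with or without the block, and 1 member was higher at an unadjusted p below 0.05 (2.33%, against 0.988% of other Olfr genes and 0.335% of all genes) and 0 were lower (against 3.95% and 0.462%).

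Olfr524 (chr7:140198499-140205964, minus strand) was that member. It had 4.65, 19.0 and 5.94 CPM in the control mice of litters 1, 2 and 3, 12.1, 41.5 and 36.2 CPM at 1% heptanal and 9.03, 25.4 and 19.6 CPM at 100% heptanal. In each litter the order was control, 100% and then 1% heptanal, and the groups overlapped because litter 1 was low throughout. The log2 fold change at 1% heptanal was 1.60 ± 0.67 (SE), with an edgeR adjusted p of 1.0 without the block and 0.9996 with it, and 0.07969 with the block when adjusted over Olfr genes alone. DESeq2 with the block, an alternative added after earlier results were seen, called it (adjusted p = 0.0299), beside 0.247% of other Olfr genes and 0.0134% of all genes. No other alternative run called a member at 1% heptanal. At 100% against 1% heptanal its log2 fold change was -0.73 ± 0.65 (SE), lower in 3 of 3 litters.

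Olfr481 was low at both concentrations in 2 of the litters, with 4.49, 4.79 and 0.758 CPM in controls, 2.07, 0.347 and 0.787 CPM at 1% heptanal and 0.457, 1.82 and 1.14 CPM at 100% heptanal. These rest on 2 to 34 counts per mouse, and the log2 fold change at 1% heptanal was -1.63 ± 0.93 (SE) with an edgeR adjusted p of 1.0. The other members of lowest p at 1% heptanal, Olfr53, Olfr6 and Olfr533, had 1.03, 1.07 and -0.50.

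At 100% against 1% heptanal the 2 exposed groups were compared directly. No member was called with or without the block by edgeR over all genes, where 2 genes (0.0134%) were called without it and 12 (0.0804%) with it, 1 of the 12 an Olfr gene (0.247% of the other Olfr genes). With the block and p-values adjusted over Olfr genes alone 4 members passed, Olfr716 and Olfr53 (adjusted p = 0.01916 each), Olfr509 and Olfr482 (9.3%, against 14.8% of other Olfr genes), all higher, and 0 members and 1 other Olfr gene (0.247%) were lower. For Olfr716 the log2 fold change was 2.69 ± 0.63 (SE) without the block, and DESeq2 called it without the block (adjusted p = 0.01383), beside 2.72% of other Olfr genes and 0.167% of all genes. DESeq2 with the block called 4 members (9.3%), Olfr716, Olfr53, Olfr509 and Olfr473, against 15.8% and 1.23%. Of these, Olfr473 reached the filter only with the help of 100% heptanal mice. The median was 1.13 for members and 1.15 for other Olfr genes.

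Few counts were recovered for Olfr2, the I7 receptor. It had 0 counts in all 3 control mice, 5, 6 and 2 counts after 1% and 27, 0 and 0 counts after 100% heptanal for litters 1, 2 and 3, with 0.235% of the estimated counts from reads with several places. It was below the filter and was not tested, and no fold is given. The 3 mice of the 1% group were above the 3 controls by these few counts, while 2 of the 3 mice at 100% heptanal had no count. The litter 3 mouse at 1% heptanal had 0.197 CPM, and 0 counts allow up to 0.363 CPM in the litter 3 control. A difference between the 1% group and controls is therefore not shown for Olfr2. Olfr17, its neighbor in the same cluster, had 2.32, 17.2 and 8.85 CPM in controls, 0.295, 10.1 and 14.2 CPM at 1% heptanal and 17.5, 18.8 and 22.9 CPM at 100% heptanal, so that the 3 mice at 100% heptanal were above all others, by a small margin over the litter 2 control (log2 fold change 1.06 ± 1.00 SE, edgeR adjusted p = 0.5128 with the block).

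How reads were shared between genes mattered for a few members. Reads that the authors assigned to 1 of several places made up 17.6% of the member counts, 6.83% without Olfr482, and 8.97% of the counts of other Olfr genes. Among the 41 members with at least 100 counts the median share was 7.64%, and Olfr482 and Olfr538 were over 50%. In Olfr482 it was 96.6%, with 228 uniquely placed reads of 6695 counts. Of the 2550 stretches of 50 bases in its exons, 1135 recur at 2 to 20 places of the genome, 727 of them in Ramac, a gene for an mRNA cap methylation factor that the tables list as Fam103a1. Fam103a1 itself had 398.7 estimated counts in the litter 1 control mouse with 6 placed uniquely, where Olfr482 had 495 with 30. The counts of Olfr482, the second highest per kb of exon, are therefore uncertain. Its log2 fold change at 100% heptanal was 0.34 ± 0.34 (SE) from all reads and 0.13 from unique reads.

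Olfr538 had 58.7% of its counts from such reads and shares 411 of 1793 stretches of 50 bases with Olfr537-ps1 and 210 with Olfr46. From unique reads it had 1, 1 and 4 counts in controls, 1, 3 and 2 after 1% and 20, 6 and 7 after 100% heptanal, so the 100% heptanal mice stayed above the rest, but it fell below the filter and could not be tested. Olfr518 (43.3%) and Olfr707 (38.6%) follow, and Olfr707 shares 730 of its 1786 stretches with Olfr1532-ps1. Olfr518 was not tested, with 0, 4 and 9 counts in controls, 0, 0 and 6 after 1% and 57, 25 and 10 after 100% heptanal. For Olfr53 the share was 24.4%, and 101 of its 1237 stretches are shared with Olfr45. Its unique reads gave 41, 47 and 24 counts in controls, 90, 78 and 70 after 1% and 356, 230 and 89 after 100% heptanal, and the log2 fold change at 100% heptanal was then 2.38. Olfr716 had 3.4% of its counts from such reads and Olfr524 none.

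**Figure D5:**
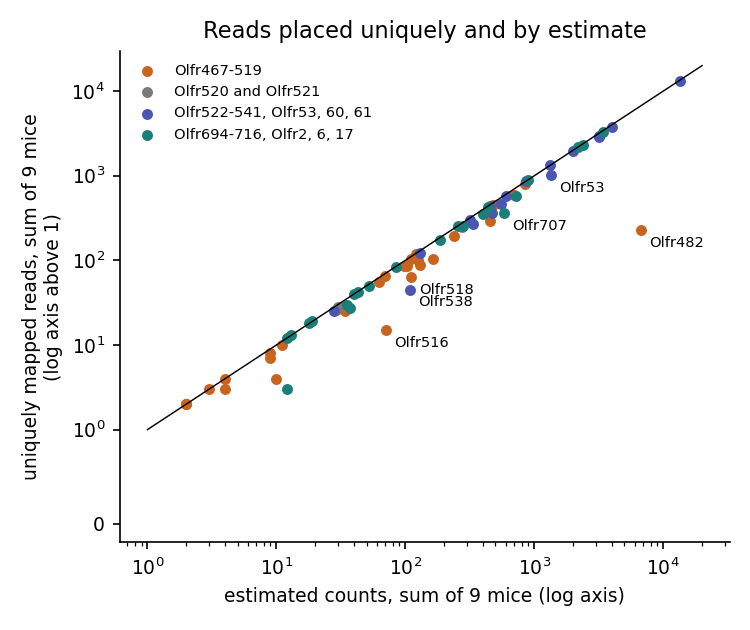
Uniquely mapped reads (y axis, log scale above 1) against estimated counts (x axis, log scale), each summed over 9 mice, for the 71 members with a count, colored by group, with the line of equal values. Most members lie close to the line, while Olfr482 has 228 unique reads of 6695 counts and Olfr538, Olfr518, Olfr516, Olfr707 and Olfr53 lie below it.

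The members' share of all OR counts was lowest at 100% heptanal in each litter with the estimated counts, but not with uniquely mapped reads. It was 18.0%, 16.2% and 17.7% in the control mice of litters 1, 2 and 3, 18.6%, 17.1% and 18.9% at 1% heptanal and 16.8%, 13.8% and 15.4% at 100% heptanal. The means were 17.3% ± 1.00, 18.2% ± 0.98 and 15.4% ± 1.51 (SD, n = 3 each). The lowest control mouse (16.2%) was below the highest 100% heptanal mouse (16.8%), while every 1% heptanal mouse was above it. From unique reads it was 15.1%, 15.7% and 15% in controls, 14.8%, 16.7% and 17.7% with 1% heptanal and 15.2%, 13.0% and 14% with 100% heptanal, so that in litter 1 the 100% heptanal mouse had the highest share. Without Olfr536, the member with the most counts, the means were 13.9% ± 2.74, 14.2% ± 3.77 and 12.8% ± 1.26 (SD, n = 3 each), which differ by less than the spread between mice. By cluster, Olfr522 to Olfr541 made up 10.8% ± 1.28 of OR counts in controls, 12.1% ± 0.805 at 1% heptanal and 8.21% ± 1.54 at 100% heptanal, and Olfr694 to Olfr716 made up 2.47% ± 0.893, 2.64% ± 1.32 and 4.15% ± 0.679 (SD, n = 3 each). For both clusters the 100% heptanal mice were outside the range of the controls. Olfr694 to Olfr716 made up 4.07% in the litter 3 mouse at 1% heptanal and 3.44% in its 100% heptanal littermate. Single genes weighed heavily. Olfr536 held 2097 of 4024 counts of Olfr522 to Olfr541 in the litter 2 control. Olfr716 held 1412 of 2231 counts of Olfr694 to Olfr716 in the litter 1 mouse at 100% heptanal. The cluster shares without these genes were not compared. The summed level of the members was 615 ± 266, 650.4 ± 352 and 1084 ± 170 CPM (SD, n = 3 each), 2.51, 1.38 and 1.89 times that of the control littermate at 100% heptanal, and that of other Olfr genes was 2.73, 1.66 and 2.23 times.

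Genes that act with the receptors were read beside them. Of 21 genes of OSN transduction and OR regulation, all tested, 0 passed the threshold at 100% heptanal without the block and 3 with it, all higher: Omp, the olfactory marker protein, Gng13, a G protein gamma subunit, and Stoml3, a stomatin of OSN cilia. Their median log2 fold change was 0.50 at 100% heptanal and 0.03 at 1% heptanal. Of 12 activity genes 10 were tested, and at 100% heptanal Fosb passed without the block and Fos, Fosb, Egr1 and Nr4a1 with it, all higher, while 0 passed at 1% heptanal. Fosb, an AP-1 transcription factor, had 3.87, 2.40 and 1.77 CPM in controls and 88.9, 95.6 and 67.1 CPM at 100% heptanal. The OSN markers, too, were higher at 100% heptanal in every litter, and the counts were therefore also scaled to them. This scaling made the summed counts of the 5 markers level, and not each marker. Omp made up most of the sum, with 9234 of 11770 CPM in the litter 1 mouse at 100% heptanal. Before scaling, the log2 fold change at 100% heptanal was 1.07 for Omp, 1.05 for Cnga2, 0.72 for Gnal, 0.50 for Ano2 and 0.29 for Adcy3. With this scaling the median log2 fold change at 100% heptanal was 0.12 for members, -0.08 for other Olfr genes and -1.11 for all genes. Scaled over Olfr genes alone it was 0.22 and -0.04, with all genes at -1.14. Under the marker scaling the log2 fold change of Olfr53 was 1.35, down from 2.37, and that of Olfr716 was 1.36, down from 2.26 (edgeR adjusted p = 0.08302 and 0.08661 without the block, 0.0069 and 0.02036 with it). The direction turned for 14 of the 43 members, among them Olfr524 at -0.02, Olfr531 at -0.33, Olfr533 at -0.36, Olfr536 at -0.65 and Olfr482 at -0.83, and for 13 when scaled over Olfr genes alone. Among markers of other cells in the OE, those of sustentacular cells (Cyp2g1, Cyp1a2 and Ermn) summed to 895.7 to 1386 CPM in controls and 1704 to 2061 CPM at 100% heptanal, and their part in the result was not tested. For the other 8 lists (immature OSNs, horizontal basal, microvillous, Bowman gland, ensheathing glia, ciliated respiratory, immune and red blood cells) the ranges at 100% heptanal and in controls overlapped.

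At annotated starts (250 bases before to 50 after, GENCODE M21), the letters CCCNNGGG, the core of the Olf1/Ebf site that is known from OR promoters, were found in 22 of 85 members (25.9%), 153 of 1151 other Olfr genes (13.3%) and 10.6% of all 55304 annotated genes. The letters TAATTA, a homeodomain site, were found in 12 members (14.1%), 24.5% of other Olfr genes and 7.56% of all genes. Both motifs read the same on either strand and cannot overlap each other. A match describes these letters in these windows and not a bound site. Some annotated starts, such as that of Olfr474, may be coding starts, and those windows may not be promoters.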

How the data were processed

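mRNAs bound by phosphorylated S6 were immunoprecipitated from the OE of 9 C57BL/6 mice, reverse transcribed, amplified and sequenced. Per the methods, reads were aligned by the authors with Bowtie (mm10) and assigned to genes with bedtools (versions not given in the sources used here), with OR gene models that include untranslated exons. The deposited tables have no header, and the columns were identified from their values: column 2 as counts of uniquely mapped reads, and column 21 as estimated counts, to which the authors added reads with several possible places by a rescue scheme. The estimated counts were rounded and used for all reported results, except those stated to come from uniquely mapped reads. Neither column is normalized. Totals were 5438501 to 9707581 per mouse, and 3 counts are 0.309 to 0.552 CPM. Chi-square tests of pairs of mice within a group gave 29.8 to 110.0 per degree of freedom, and the mice of a group were counted as separate samples.

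Groups came from the labels, which give a code and the exposure but name no litter. Litters were inferred from the replicate numbers and the methods, as described below. The codes begin with YJC for the mice of replicate 1 and with YJE for all other mice. The mice of replicate 1 were also the oldest. Litter 1 therefore coincides with a separate code series and with age, and the part of either in its values was not tested. The main test was the quasi-likelihood test of edgeR 4.0.16 (R 4.3.3, filterByExpr, TMM, glmQLFit, glmQLFTest, 3 groups), with Benjamini-Hochberg adjustment over all 14930 genes tested and a threshold of 0.05. Adjustment over the 448 Olfr genes tested is named where used. The SE is the log2 fold change divided by the root of its test statistic. The methods state that mice of 1 replication were littermates of 1 sex, so replicate numbers pair the mice, and deviations from group means correlated at 0.5397 on average over the 9 same-numbered pairs (0.1553 to 0.7304) and -0.2534 over the 18 others. The fit with litter as a block is given where it changes a call. The alternatives comprised 39 fits, 17 of which were added after earlier results were seen. DESeq2 1.42.0 without the block was planned and with the block was added. The tests were checked on simulated counts.

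The rule for members uses gene names only, but it and the lists of genes were chosen with earlier results of these data known. Named members are the 8 of lowest p at 100% heptanal among those higher in 3 of 3 litters, the 5 of lowest p at 1% heptanal, the 8 of highest mean CPM, the 4 with at least 100 counts and the largest share of reassigned reads, members called with or without the block, the member off chromosome 7, and Olfr2, Olfr6, Olfr17, Olfr53, Olfr524, Olfr533 and Olfr538. Others named in the text (such as Olfr541, Olfr509, Olfr699, Olfr517, Olfr703, Olfr516, Olfr473, Olfr478, Olfr488, Olfr494, Olfr523 and Olfr695) were chosen after their values were seen. All 85 members were found in RefSeq and in GENCODE M21, both of GRCm38. The RefSeq windows at gene starts hold 76 members, and 64 of these begin at the coding start, so GENCODE starts were used for motifs. For some members, such as Olfr474 (chr7:107954643) and Olfr508 (chr7:108629994), the GENCODE start is the same position as in RefSeq. Sequence windows of the coding exons are not reported here.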

Additional observations from a re-analysis of the deposited data

How the results depend on the processing

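The number of members called at 1% heptanal was 0 in every alternative but DESeq2 with the replicate block, which called 1 (Olfr524). At 100% heptanal against control, 0 without the block, the replicate block gave 1, the block with p-values adjusted over Olfr genes 2, and there were 1 with the block on uniquely mapped reads, 1 with DESeq2, 4 with DESeq2 and the block, 5 with the block and scaling by 5 OSN markers and 6 with the block and TMM over Olfr genes alone. All calls were higher, except 3 of the 5 (Olfr481, Olfr482 and Olfr523) and 2 of the 6 (Olfr481 and Olfr523), which were lower. With these 2 scalings 9.38% and 12.6% of other Olfr genes were called higher and 8.4% and 11.9% lower, and 65.0% and 57.8% of all genes were lower. At 100% against 1% heptanal the same order gave 0, 4, 0, 1, 4, 4 and 10, with 1 of the last 4 (Olfr524) and 4 of the 10 lower. There the 2 scalings called 13.6% and 17% of other Olfr genes higher and 5.19% and 12.6% lower, and 44.3% and 66.4% of all genes were lower. The likelihood ratio test gave 1 (Olfr716), beside 2.47% of other Olfr genes and 0.141% of all genes higher. Both scalings move the median of all genes by about 1 on the log2 scale, so their calls are relative to OSN markers or to other ORs. Leaving out 1 mouse or litter gave 0 without the block for each comparison, and with the block 0 at 1% heptanal, 0 to 2 at 100% heptanal and 0 to 1 at 100% against 1% heptanal. The direction at 100% heptanal turned for 14 and 13 of the 43 members under the marker and the Olfr scaling, and with the block for 10 and 11. Scaled over Olfr genes alone the log2 fold change was -0.0502 for Olfr524, -0.44 for Olfr531, -0.58 for Olfr533, -0.52 for Olfr536 and -0.80 for Olfr482, and with the block -0.0462, -0.38, -0.29, -0.0261 and -0.68. Scaled by OSN markers it was -0.0224, -0.33, -0.36, -0.65 and -0.83, and with the block -0.0208, -0.36 and -0.30 for the first 3 and -0.65 for Olfr482. Olfr536 also turned without the litter 1 control (-0.19), without litter 1 (-0.0647, with the block -0.0402) and, with the block, without the 100% heptanal mouse of litter 1 (-0.42). Its values with 1 mouse or litter left out ran from -0.19 to 1.03 without the block and from -0.42 to 1.85 with it. With 10 counts as the limit of detection the mean number of members was 30 at 1% and 40.67 at 100% heptanal, and with the CPM of 3 counts in the smallest library it was 47.67 at 100% heptanal. Without 1 mouse the means were 42 to 57 in controls, 40 to 53.5 at 1% and 55 to 60.5 at 100% heptanal. The members' share of OR counts from unique reads was 15.3% ± 0.360, 16.4% ± 1.49 and 14.1% ± 1.10 (SD, n = 3 each) for the control, 1% and 100% groups. Without Olfr536 it was 13.9%, 14.2% and 12.8% in controls, at 1% and at 100% heptanal, and without Olfr482 14.8% and 15.9% in controls and at 1% heptanal. Without 1 mouse it was 16.9% to 17.9%, 17.8% to 18.7% and 14.6% to 16.1%. For none of these was the cause tested, apart from the fewer samples or genes by construction. The 28 members with counts that did not pass the filter were tested only in the fit with no filter, which called 0.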
